A study of Mus musculus with 6 samples.

Results

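The proteasome is the cytosolic and nuclear protease complex that degrades proteins marked with ubiquitin. Its transcripts were taken as the genes whose symbols begin with Psm, a letter from a to g and a number, and 49 of the 22466 genes with a RefSeq transcript in the deposited table met this rule. Of these, 4 had more than 1 RefSeq transcript, and the one with the highest mean abundance over the 6 cultures stood for the gene. Psmc3ip also met the rule, but it encodes a meiotic recombination factor and not a subunit, so it was kept out of all groups. It lay at 1.08, 0.801 and 0.929 RPKM in WT and 1.53, 1.13 and 1.17 RPKM in Ucp1-KO cultures, from 13 to 24 reads. Psma8, a testis form of an alpha subunit, and Psmb11, the thymus form of a beta subunit, stayed under the minimum mean of 0.5 RPKM (reads normalized to the length of the transcript and to the mapped reads of the culture). Psma8 had a mean of 0.204 RPKM from 1 to 10 reads per culture and Psmb11 was listed at 0 in all cultures. The remaining 46 members were tested.

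RNA was sequenced from brown adipocytes grown from precursor cells of the interscapular brown fat of young male mice of the 129SvEvS1 strain. The cells were differentiated in the dish and the labels name no treatment. In all, 3 cultures came from wildtype mice (WT 10, WT 11 and WT 12) and 3 from UCP1(-/-) mice (Ucp1-KO 13, Ucp1-KO 14 and Ucp1-KO 15), which lack functional UCP1, the uncoupling protein of brown fat mitochondria, in every cell of the body. The labels did not say whether cultures of one genotype came from separate mice, so that all p-values refer to the spread between these cultures. Between 14989604 and 17727653 reads lay behind the RPKM values of a culture. Ucp1 was measured at 1775, 981 and 1157 RPKM in WT and at 307, 409 and 398 RPKM in Ucp1-KO cultures, where a remnant of the transcript is still made, with a log2 fold change of -1.78 (limma, unadjusted p = 0.000157, adjusted p = 0.868). The other 8 brown adipocyte markers were present in all 6 cultures, with Adipoq between 1135 and 1714 RPKM and Cidea between 615 and 1371 RPKM. Summed markers of stromal cells lay at 562 to 990 RPKM in WT and 424 to 714 RPKM in Ucp1-KO cultures, those of endothelium at 2.30 to 28.01 and 5.22 to 12.8 RPKM, and those of skeletal muscle at 2.56 to 6.10 and 2.40 to 10.2 RPKM.

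The proteasome consists of a barrel-shaped core particle and caps that sit on its ends. The core is built from outer rings of alpha subunits and inner rings of beta subunits, and Psmb5, Psmb6 and Psmb7 carry the catalytic sites. The regulatory cap unfolds substrates with a ring of ATPases (Psmc) and recognizes and removes ubiquitin with its non-ATPase subunits (Psmd). After interferon signaling, and in immune cells also without it, the catalytic subunits are replaced by Psmb8, Psmb9 and Psmb10 to give the immunoproteasome, and Psme1 and Psme2 form an alternative cap that favors the production of peptides for MHC class I molecules. In brown fat, the proteasome is supplied by the transcription factor NFE2L1 and is required for protein quality control during cold exposure.

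Promoter sequences are shown for the catalytic subunits Psmb5, Psmb6, Psmb8, Psmb9 and Psmb10 and for Psme1 and Psme2 of the alternative cap, because the exchange of catalytic subunits sets the form of the proteasome and the results on single cultures turn on these genes. None is shown for Psmb7. Each runs 5′ to 3′ on the gene's own strand from 250 bases before to 50 bases after the start site given by RefSeq on GRCm38.p6. Capitals mark the antioxidant response core TGACNNNGC in Psmb5 and Psmb6, and the interferon-stimulated response element (GAAA, any 2 bases, GAAA) or the STAT element TTCNNNGAA in the immunoproteasome and cap genes, on either strand. Psmb9, Psmb10 and Psme2 held neither of the latter in these windows.
Psmb5 promoter (chr14:54617946-54618245, reverse strand): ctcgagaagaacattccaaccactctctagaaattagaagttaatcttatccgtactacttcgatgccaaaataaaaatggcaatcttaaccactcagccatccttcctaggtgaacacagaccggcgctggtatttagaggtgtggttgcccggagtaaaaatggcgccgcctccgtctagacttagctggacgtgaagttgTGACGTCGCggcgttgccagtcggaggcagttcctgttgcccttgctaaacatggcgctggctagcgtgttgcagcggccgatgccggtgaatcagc
Psmb6 promoter (chr11:70525107-70525406, forward strand): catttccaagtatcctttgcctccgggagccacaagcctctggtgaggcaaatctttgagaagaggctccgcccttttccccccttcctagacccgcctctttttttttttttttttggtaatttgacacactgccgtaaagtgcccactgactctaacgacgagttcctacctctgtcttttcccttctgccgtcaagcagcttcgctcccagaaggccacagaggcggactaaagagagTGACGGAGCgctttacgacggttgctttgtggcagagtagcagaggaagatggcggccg
Psmb8 promoter (chr17:34197945-34198244, forward strand): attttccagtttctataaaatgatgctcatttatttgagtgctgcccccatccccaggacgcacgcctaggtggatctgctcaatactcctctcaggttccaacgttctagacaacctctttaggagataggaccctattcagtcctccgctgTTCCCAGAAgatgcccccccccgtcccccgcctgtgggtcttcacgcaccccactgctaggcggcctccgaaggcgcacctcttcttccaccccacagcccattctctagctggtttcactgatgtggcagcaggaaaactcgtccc
Psmb9 promoter (chr17:34187281-34187580, reverse strand): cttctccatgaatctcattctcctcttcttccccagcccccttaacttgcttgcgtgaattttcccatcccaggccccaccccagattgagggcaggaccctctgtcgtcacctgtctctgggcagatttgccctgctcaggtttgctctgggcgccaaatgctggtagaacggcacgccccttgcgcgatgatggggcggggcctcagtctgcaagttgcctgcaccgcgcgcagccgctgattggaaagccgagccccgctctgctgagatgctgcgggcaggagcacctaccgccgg
Psmb10 promoter (chr8:105938343-105938642, reverse strand): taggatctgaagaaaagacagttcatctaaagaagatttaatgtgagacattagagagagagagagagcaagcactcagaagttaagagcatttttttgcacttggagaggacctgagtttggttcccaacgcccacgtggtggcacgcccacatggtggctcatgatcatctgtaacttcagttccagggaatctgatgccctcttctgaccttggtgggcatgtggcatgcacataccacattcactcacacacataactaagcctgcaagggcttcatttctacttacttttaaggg
Psme1 promoter (chr14:55578244-55578543, forward strand): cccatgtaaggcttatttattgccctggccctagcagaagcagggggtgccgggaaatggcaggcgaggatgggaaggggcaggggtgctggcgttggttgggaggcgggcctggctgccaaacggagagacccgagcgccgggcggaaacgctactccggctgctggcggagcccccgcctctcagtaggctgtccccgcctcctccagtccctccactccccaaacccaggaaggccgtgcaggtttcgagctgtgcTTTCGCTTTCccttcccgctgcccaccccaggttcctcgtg
Psme2 promoter (chr14:55590972-55591271, reverse strand): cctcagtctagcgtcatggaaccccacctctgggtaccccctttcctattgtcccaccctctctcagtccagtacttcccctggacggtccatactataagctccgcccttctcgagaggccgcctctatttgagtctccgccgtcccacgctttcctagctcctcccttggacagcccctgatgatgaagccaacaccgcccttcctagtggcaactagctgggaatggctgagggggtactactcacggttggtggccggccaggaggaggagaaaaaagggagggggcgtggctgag
Psmb8, Psmb9, Psme1 and Psme2 lie in pairs, given here by the gene bounds of GENCODE M21 on GRCm38. Psmb8 (chr17:34197721-34201454, forward strand) and Psmb9 (chr17:34181987-34187764, reverse strand) lie in the MHC region on either side of Tap1 (chr17:34187553-34197225, forward strand) and point away from each other. Psme1 (chr14:55578123-55581529, forward strand) and Psme2 (chr14:55587441-55591113, reverse strand) lie on the chromosome that also carries Psmb5 (chr14:54614119-54618022, reverse strand).

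A RefSeq promoter window was at hand for 39 of the 46 members. The antioxidant core was found in 6 of these 39, or 15.4%, against 12.4% of all 32851 windows. It lay 47 bases before the start site in Psmb5 and 9 bases before it in Psmb6, and was also found in Psmc6, Psmd9, Psmd12 and Psme4. The interferon element was found in 5 members, or 12.8%, against 3.44% of all windows, and these were Psmb3, Psmd4, Psmd9, Psme1 and Psmg4. The STAT element was found in Psmb8, 97 bases before the start site, and in Psmd2 and Psmg1, or 7.69% against 8.30% of all windows. The CCAAT box (CCAAT) was found in 13 members, or 33.3%, against 37.4%. A member with several windows was counted if any of them held the motif. These are matches of letters, and binding was not measured.

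By median abundance the core stood above the caps, and the caps above the chaperones. Psma1, an alpha subunit, was the most abundant member with 241, 276 and 267 RPKM in WT and 240.5, 307 and 279 RPKM in Ucp1-KO cultures. The cultures of both genotypes overlapped. The median of the 7 alpha subunits was 117 RPKM and that of the 7 beta subunits was 104 RPKM, against 53.7 RPKM for the 6 ATPases, 52.1 RPKM for the 11 non-ATPase subunits and 14.1 RPKM for the 4 core assembly chaperones. The 3 immunoproteasome subunits had means between 9.53 and 11.03 RPKM.

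Subunits that occur in equal numbers in the complex did not have equal transcript levels. The 6 ATPases were within 1.30-fold of each other, from Psmc1 at 48.9 RPKM to Psmc4 at 63.4 RPKM. Those of the alpha ring covered 48.7-fold, from Psma3 at 5.52 RPKM to Psma1 at 268.5 RPKM, and those of the beta ring covered 7.08-fold, from Psmb5 at 20.6 RPKM to Psmb7 at 146 RPKM. The non-ATPase subunits covered 6.17-fold, from Psmd11 at 30.3 RPKM to Psmd8 at 187 RPKM.

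**Figure D1:**
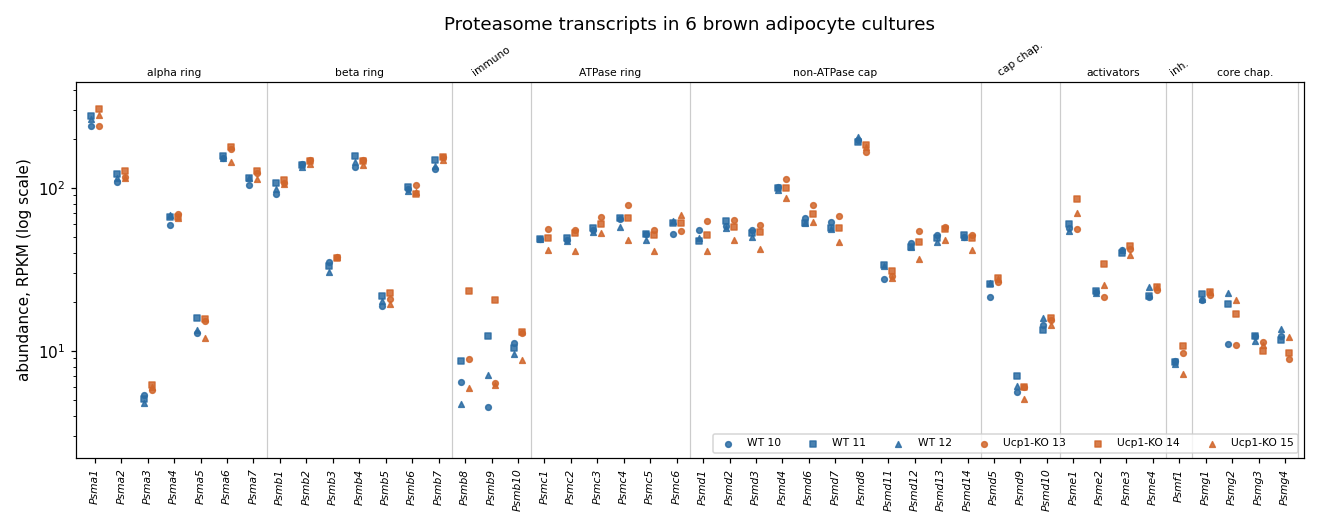
Abundance in RPKM on a log scale of the 46 members tested, arranged by their place in the complex, with 1 point per culture (blue, WT; orange, Ucp1-KO; the marker shape gives the replicate). The ATPase ring lies within 1.30-fold while the alpha ring covers 48.7-fold, and Psmb8 and Psmb9 of Ucp1-KO 14 stand above all other cultures.

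Several of the less abundant members share sequence with other genes. The authors assigned only uniquely identified reads, so that reads from a sequence shared with another gene could be lost. Windows of 50 bases were counted in 1 transcript per gene. Of those of Psma5, 55.4% also occur in transcripts of other genes. The shares were 55.8% for Psmb3, 57.1% for Psmb5, 62.1% for Psme2 and 31.5% for Psma4. They were 28.1% for Psmb7, 26.4% for Psmd2, 22.7% for Psmg3 and 22.0% for Psma3. For Psmb3 all of these other genes were pseudogenes, 7 in number. Psmb7 and Psmg3 shared 0% of their windows with pseudogenes, and Psme2 shared 0.27%. The count did not tell a copy elsewhere from a gene that overlaps at the same place, where a read can still be unique. The levels of the listed members may therefore be uncertain, but loss of reads was not shown. Psmb7, at 146 RPKM, was also the fourth most abundant member. Tested members that shared 0 windows ranged from Psmf1 at 8.87 RPKM to Psma1 at 268.5 RPKM, and Psmd9 at 5.96 RPKM shared 0.667%. How far mapping set the levels was not tested.

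**Figure D2:**
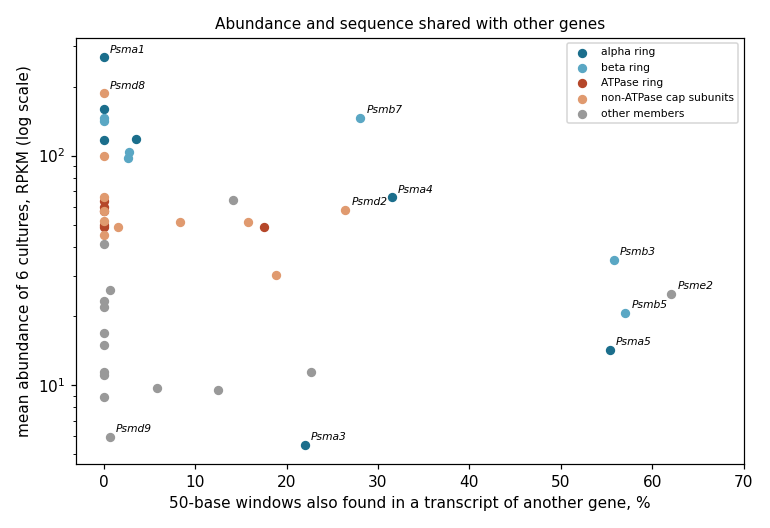
Mean abundance of the 6 cultures in RPKM (log scale) against the percentage of a gene's 50-base windows that also occur in transcripts of another gene, with 1 point per member and colors for the parts of the complex. Psma5, Psmb3, Psmb5 and Psme2 share more than 55% of their windows and lie between 14.2 and 35.2 RPKM.

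Proteasome transcripts varied little between cultures. The median coefficient of variation over the 6 cultures was 9.39% for the 46 members, 11.8% for the 10141 transcripts with a mean between 5 and 300 RPKM, and 14.7% for all 16865 transcripts tested. These sets were not matched for abundance, and the part of abundance in the difference was not tested. Among the members the lowest was 3.73% in Psmb2, a structural beta subunit, and the highest were 71.3% in Psmb8 and 63.5% in Psmb9.

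No member passed the test between genotypes. Of the 46 members, 0 passed an adjusted p of 0.05 in limma, as did 0 of all 16865 transcripts tested (0%). At an unadjusted p under 0.05 there were again 0 members, against 935 transcripts or 5.54% overall. The log2 fold change of Ucp1-KO over WT, on the log2(RPKM + 1) scale, was above 0 in 32 members and below 0 in 14, with a median of 0.06, while 49.6% of all transcripts were above 0 and their median was -0.0016. Median-of-ratios scaling gave 34 members above 0, because Psmb4 and Psmd4 then passed 0. Without Ucp1-KO 14 there were 25 above 0, without Ucp1-KO 13 there were 27 and without Ucp1-KO 15 there were 37. Leaving out 1 culture at a time put the median of the members between 0.0048 and 0.10. The cultures of the genotypes did not overlap in 5 of 46 members. Ucp1-KO was above WT in 3 members, where 6.04% of all transcripts were above, and below WT in 2 members, where 5.15% of all were below. In bulk RNA, fewer cells of a type and less RNA per cell cannot be told apart.

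**Figure D3:**
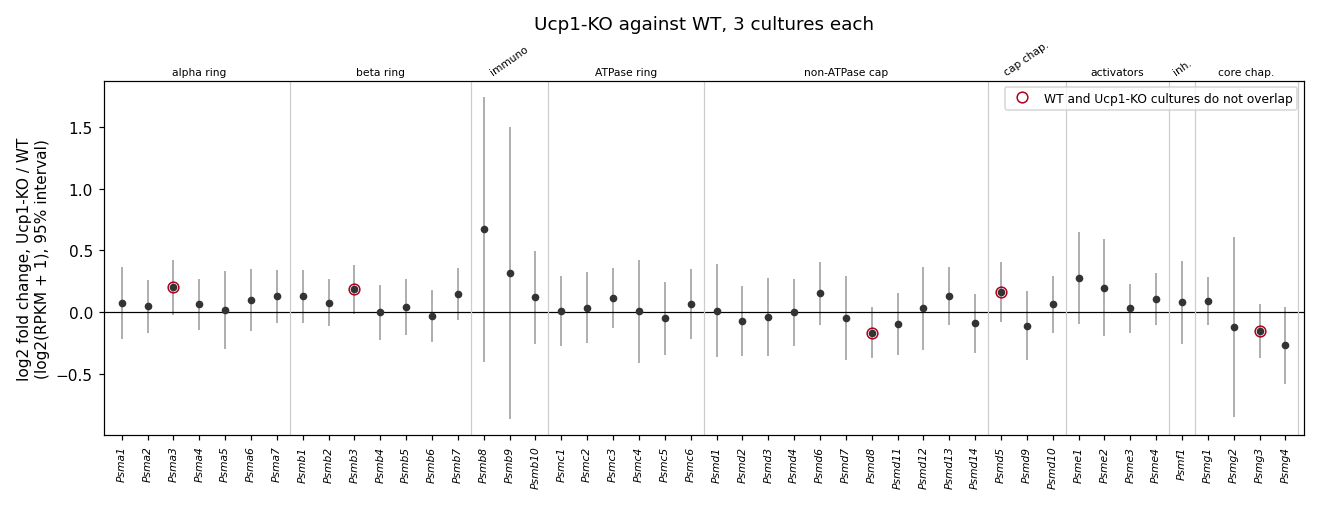
Log2 fold change of Ucp1-KO over WT with its 95% confidence interval from limma on log2(RPKM + 1) for the 46 members tested, with 3 cultures per genotype. Every interval includes 0, and red circles mark the 5 members in which the cultures did not overlap.

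In the alpha ring, which gates the entry to the core, the log2 fold change was above 0 in 7 of 7 members, between 0.02 and 0.20. Psma3 had 5.39, 5.06 and 4.76 RPKM in WT and 5.74, 6.15 and 6.001 RPKM in Ucp1-KO cultures. All Ucp1-KO cultures lay above all WT cultures. The log2 fold change was 0.20 with a standard error of 0.093 (limma, unadjusted p = 0.0712, adjusted p = 0.871), and it rests on 121 to 152 reads per culture. Psma1 had a log2 fold change of 0.07 with a standard error of 0.12, and without Ucp1-KO 14 it was -0.0086.

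In the beta ring, 5 of 7 members were above 0. Psmb3, a structural subunit, gave the smallest p of all members, with 34.9, 33.1 and 30.7 RPKM in WT and 37.7, 37.1 and 37.7 RPKM in Ucp1-KO cultures. The genotypes did not overlap, and the lowest Ucp1-KO culture stood next to the highest WT culture. The log2 fold change was 0.18 with a standard error of 0.083 (limma, unadjusted p = 0.0628, adjusted p = 0.868). In the exact two-sided permutation test 3 cultures against 3 cannot go below p = 0.10, which was reached by all 5 members without overlap.

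The catalytic subunits of the constitutive core overlapped between genotypes, in Psmb7 only because WT 11 and Ucp1-KO 15 were nearly equal. Psmb5, with chymotrypsin-like activity, had 18.97, 21.7 and 20.3 RPKM in WT and 20.8, 22.6 and 19.5 RPKM in Ucp1-KO cultures. Psmb6, with caspase-like activity, had 98.8, 102 and 96.5 RPKM in WT and 105, 91.7 and 94.6 RPKM in Ucp1-KO cultures. Psmb7, with trypsin-like activity, had 130.0, 149 and 136 RPKM in WT and 155, 156 and 149 RPKM in Ucp1-KO cultures. Their log2 fold changes were 0.04, -0.03 and 0.15, with 95% intervals from -0.19 to 0.27, from -0.24 to 0.18 and from -0.06 to 0.36. Psmb5 and Psmb6 changed sign without Ucp1-KO 14, at -0.012 and 0.0069, and Psmb5 also without WT 10, at -0.0043.

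Psmb8 and Psmb9 had the widest range between cultures of the 46 members, 4.92-fold and 4.57-fold, and their highest value was in the same culture. Psmb8 had 6.47, 8.67 and 4.75 RPKM in WT and 8.86, 23.4 and 5.95 RPKM in Ucp1-KO cultures. Psmb9 had 4.51, 12.4 and 7.07 RPKM in WT and 6.38, 20.6 and 6.21 RPKM in Ucp1-KO cultures. Psmb10 had 11.3, 10.5 and 9.64 RPKM in WT and 12.9, 13.1 and 8.83 RPKM in Ucp1-KO cultures. Ucp1-KO 14 was the highest culture in all 3 genes, closely followed by Ucp1-KO 13 in Psmb10, Ucp1-KO 15 was within or below the WT range, and the genotypes overlapped in each. The log2 fold changes were 0.67 for Psmb8, 0.32 for Psmb9 and 0.12 for Psmb10, with standard errors of 0.45, 0.50 and 0.16 (limma, adjusted p = 0.876, 0.935 and 0.921). For Psmb8 the 95% interval ran from -0.40 to 1.74. Without Ucp1-KO 14 the log2 fold changes were 0.15, -0.21 and 0.03, and without Ucp1-KO 15 those of Psmb8 and Psmb10 were 1.06 and 0.29 (limma, unadjusted p = 0.0425 and 0.0321, where 5.16% of all transcripts had an unadjusted p under 0.05).

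The share of the immunoproteasome beside its constitutive counterparts varied in the same culture. Psmb8 amounted to 34.1%, 40.0% and 23.4% of Psmb5 in WT and to 42.7%, 104% and 30.6% in Ucp1-KO cultures. Psmb9 amounted to between 4.56% and 12.2% of Psmb6 in WT cultures and to 6.08%, 22.5% and 6.56% in Ucp1-KO cultures. Psmb10 stayed between 5.91% and 8.66% of Psmb7 in all 6 cultures. Since 57.1% of Psmb5 windows are shared with other genes, and 50% with pseudogenes, the first of these shares is uncertain. Psmb7 (28.1%) and Psmb9 (12.5%) shared windows with 1 other gene each and with 0 pseudogenes. By the gene bounds above, Psmb9 overlaps Tap1. Whether reads of these genes were lost was not tested.

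Among the activators, the log2 fold change was above 0 in 4 of 4 members. Psme1 had 56.7, 60.5 and 54.9 RPKM in WT and 55.8, 86.0 and 70.2 RPKM in Ucp1-KO cultures. Psme2, its partner in the alternative cap, had 23.0, 23.3 and 22.6 RPKM in WT and 21.4, 34.3 and 25.3 RPKM in Ucp1-KO cultures. In both genes Ucp1-KO 14 was highest and Ucp1-KO 15 was second, while Ucp1-KO 13 lay in or below the WT range. The log2 fold changes were 0.28 and 0.20 with standard errors of 0.16 each (limma, unadjusted p = 0.124 and 0.274). They were 0.43 and 0.34 without Ucp1-KO 13 (limma, unadjusted p = 0.0107 and 0.0498, where 9.14% of all transcripts had an unadjusted p under 0.05) and 0.13 and 0.02 without Ucp1-KO 14. Psme3, which forms a nuclear cap, and Psme4, which serves histone degradation, had log2 fold changes of 0.03 and 0.11. Psme4 was the least abundant activator, at 21.3, 21.6 and 24.6 RPKM in WT and 23.5, 24.5 and 24.6 RPKM in Ucp1-KO cultures, and its genotypes overlapped. Psmf1, a proteasome inhibitor, had 8.72, 8.58 and 8.35 RPKM in WT and 9.65, 10.7 and 7.23 RPKM in Ucp1-KO cultures, and its log2 fold change of 0.08 was -0.03 without Ucp1-KO 14.

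Genes of MHC class I antigen presentation were also highest in Ucp1-KO 14. This culture led in 9 of the 10 genes of the list, while it led in 15.3% of all transcripts. B2m, the invariant chain of MHC class I, had 379, 701 and 466 RPKM in WT and 502, 1210 and 470 RPKM in Ucp1-KO cultures. Tap1, a subunit of the peptide transporter, had 7.11, 11.8 and 8.66 RPKM in WT and 8.23, 16.4 and 7.71 RPKM in Ucp1-KO cultures. Between genotypes 9 of the 10 were above 0 and 1 below, and 0 passed an unadjusted p of 0.05. The median log2 fold change of the list was 0.19.

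Markers of macrophages and other leukocytes moved with the same culture. All 7 markers found of the 8 looked up were highest in Ucp1-KO 14, none was at 0 in all cultures, and their summed level was 60.5 to 194 RPKM in WT and 42.9 to 864 RPKM in Ucp1-KO cultures. In Ucp1-KO 14, Lyz2 reached 657 RPKM against 29.98 to 127 RPKM elsewhere, C1qa reached 91.2 RPKM against 1.42 to 30.7 RPKM, and Ptprc, the common leukocyte antigen, reached 3.82 RPKM against 0.232 to 1.42 RPKM. Ucp1-KO 15 had the lowest sum, at 42.9 RPKM. WT 11 had the second highest sum at 194 RPKM. The second highest culture was WT 11 for Psmb9, B2m and Tap1, Ucp1-KO 13 for Psmb8 and Psmb10, and Ucp1-KO 15, the culture with the lowest sum, for Psme1 and Psme2. The part of these cells in the levels of Psmb8, Psmb9, Psme1 and Psme2 was not tested.

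**Figure D4:**
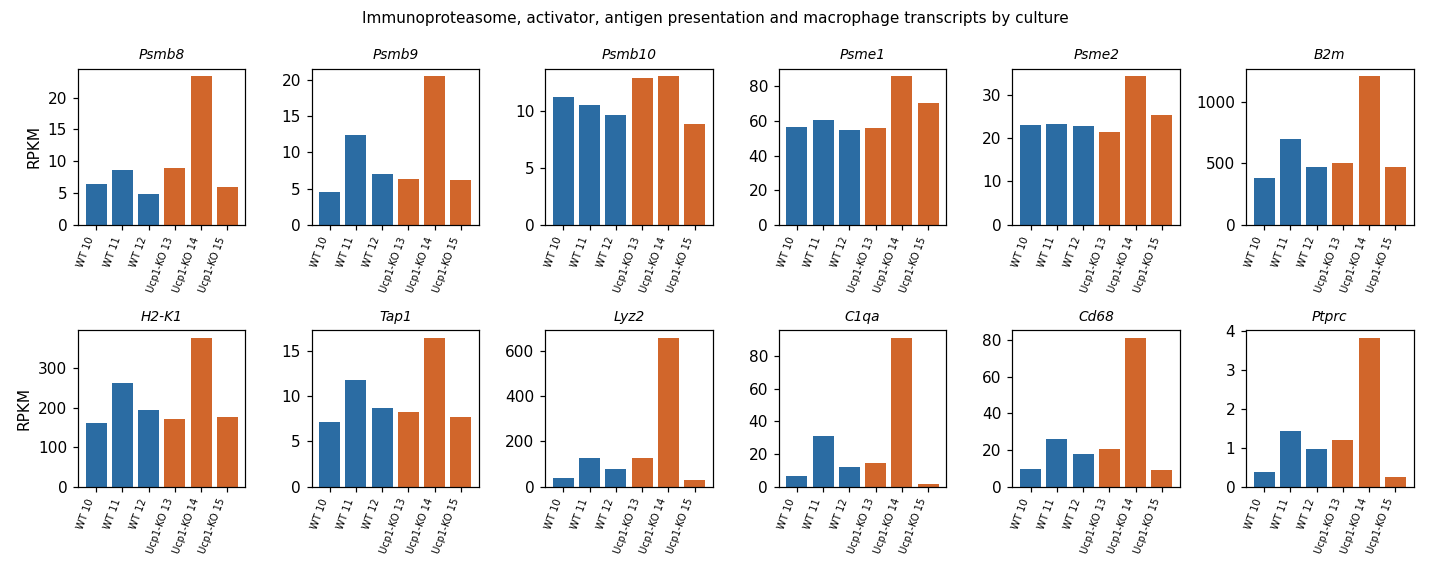
RPKM by culture (blue, WT; orange, Ucp1-KO; linear axes from 0, scales differ) for immunoproteasome subunits, activators, MHC class I genes and leukocyte markers, with 1 bar per culture. Ucp1-KO 14 has the highest bar in each of the 12 panels, such as 23.4 RPKM for Psmb8 and 657 RPKM for Lyz2. The panels are a selection. Not shown are the activator Psme4, highest in Ucp1-KO 15, and Nlrc5 of the MHC class I list, highest in Ucp1-KO 13.

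In the ATPase ring, the motor of the cap, log2 fold changes lay between -0.05 and 0.11. Psmc3 had the smallest p of the ring, with 55.1, 56.5 and 53.4 RPKM in WT and 66.0, 60.3 and 53.1 RPKM in Ucp1-KO cultures, and a log2 fold change of 0.11 with a standard error of 0.10. This was 0.04 without Ucp1-KO 13 and 0.19 without Ucp1-KO 15. Psmc4 had 64.8, 65.5 and 57.9 RPKM in WT and 78.3, 65.7 and 48.3 RPKM in Ucp1-KO cultures. Both the highest and the lowest culture were Ucp1-KO, and the log2 fold change was 0.0050. Psmc1 had 48.6, 48.3 and 48.7 RPKM in WT and 56.4, 49.6 and 41.8 RPKM in Ucp1-KO cultures. Its WT cultures were nearly equal, whereas its Ucp1-KO cultures lay on both sides of them.

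Among the non-ATPase subunits, Psmd8, which is part of the lid of the cap, was the most abundant and did not overlap between genotypes. It had 198, 191 and 205 RPKM in WT and 167, 183 and 178 RPKM in Ucp1-KO cultures. The log2 fold change was -0.17 with a standard error of 0.086 (limma, unadjusted p = 0.0966, adjusted p = 0.871), from at least 4040 reads per culture. Psmd11, the least abundant, had 27.5, 33.6 and 33.1 RPKM in WT and 29.0, 30.8 and 27.9 RPKM in Ucp1-KO cultures, which overlapped. Of the 11 subunits, 4 had log2 fold changes above 0 and 7 below, with a median of -0.04.

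The subunits of the cap deviated together in single Ucp1-KO cultures. Of the 17 ATPase and non-ATPase subunits, 13 were highest in Ucp1-KO 13 and 12 were lowest in Ucp1-KO 15, while Ucp1-KO 13 was highest in 17.6% and Ucp1-KO 15 lowest in 26.5% of all transcripts. Relative to each member's mean on the log2 scale, the median deviation of the 17 was 0.02, 0.02 and -0.04 in WT and 0.18, 0.03 and -0.23 in Ucp1-KO cultures. The 2 outer values belong to the same genotype, so that their mean is near that of WT and the median log2 fold change of the 17 is 0.0050. Markers of cell types also moved in Ucp1-KO 15, which was lowest in 5 of 8 stromal markers (median deviation -0.61) and 6 of 7 leukocyte markers (-1.15). It was highest in 5 of 9 brown adipocyte markers (0.10), and in 23.6% of all transcripts. The part of these cell types in the cap levels was not tested. Among the exceptions were Psmc6, which was highest in Ucp1-KO 15 with 68.5 RPKM, and Psmd8, which was lowest in Ucp1-KO 13.

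In the core, the deviations in these cultures had the same signs and were smaller, and the difference from the cap was not tested. Of its 14 subunits, 8 were highest in Ucp1-KO 14, 4 in Ucp1-KO 13 and 0 in Ucp1-KO 15, and 7 were lowest in WT 10. Over all transcripts these shares were 15.3%, 17.6%, 23.6% and 21.3%. The median deviation of the core was -0.11, 0.04 and -0.04 in WT and 0.07, 0.11 and -0.02 in Ucp1-KO cultures. The summed RPKM of the 17 cap subunits was 81.8%, 73.8% and 76.2% of that of the 14 core subunits in WT and 79.6%, 71.1% and 66.9% in Ucp1-KO cultures. The genotypes overlapped in this share. Cap transcripts are longer, with a median of 1564 bases against 983 bases for the core. Transcripts of 1000 to 2000 bases with a mean of 5 to 300 RPKM had a median deviation of -0.05 in Ucp1-KO 13 and -0.0024 in Ucp1-KO 15. Transcripts up to 1000 bases had -0.02 and 0.08.

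**Figure D5:**
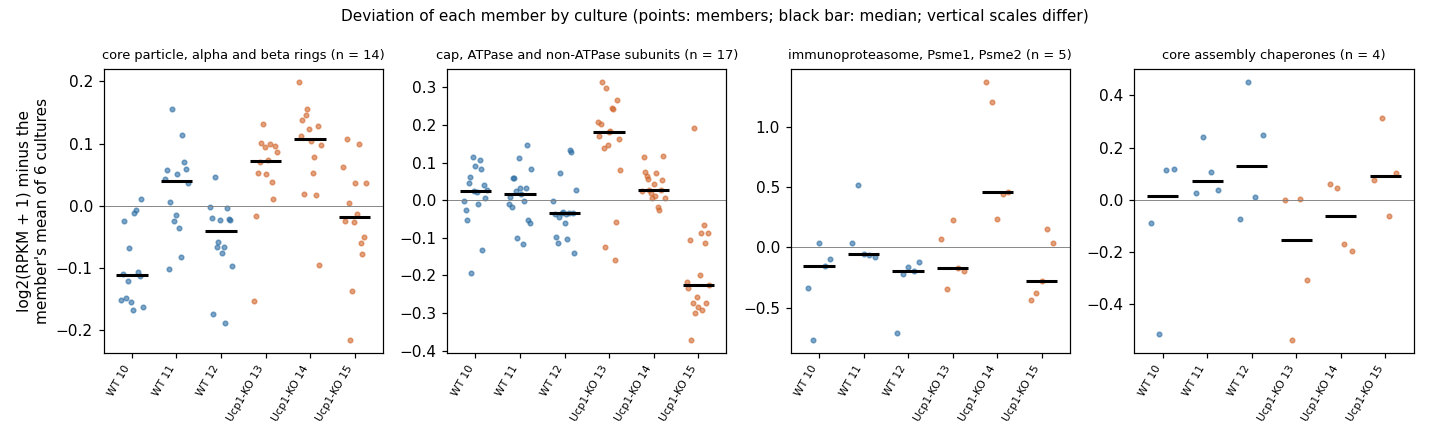
Deviation of log2(RPKM + 1) from the member's mean of 6 cultures, with 1 point per member, a black bar for the median and blue for WT and orange for Ucp1-KO, in panels for the core, the cap, the immunoproteasome with Psme1 and Psme2, and the core assembly chaperones (vertical scales differ). The cap medians are 0.18 in Ucp1-KO 13 and -0.23 in Ucp1-KO 15, while the core medians of these cultures are 0.07 and -0.02.

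The chaperones that assemble the complex lay on both sides of 0. Psmd5, which holds ATPases before the cap is complete, had 21.4, 25.6 and 26.2 RPKM in WT and 26.4, 28.1 and 27.7 RPKM in Ucp1-KO cultures. The Ucp1-KO cultures lay above the WT cultures, but Ucp1-KO 13 was close to WT 12. The log2 fold change was 0.17 with a standard error of 0.10 (limma, unadjusted p = 0.151), and without WT 10 it was 0.08. Psmd9, another chaperone of the ATPases, had 5.63, 7.004 and 6.07 RPKM in WT and 5.97, 6.04 and 5.07 RPKM in Ucp1-KO cultures, which overlapped.

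Among the chaperones of the core, 3 of 4 had log2 fold changes below 0. Psmg4 had 12.3, 11.6 and 13.6 RPKM in WT and 8.92, 9.73 and 12.2 RPKM in Ucp1-KO cultures. The genotypes overlapped because Ucp1-KO 15 lay in the WT range. The log2 fold change was -0.27 with a standard error of 0.13 (limma, unadjusted p = 0.0809, adjusted p = 0.871) and was -0.39 without Ucp1-KO 15 (unadjusted p = 0.0129), from 67 to 112 reads per culture. Psmg3, its partner, had 12.4, 12.3 and 11.4 RPKM in WT and 11.4, 9.96 and 10.8 RPKM in Ucp1-KO cultures. All Ucp1-KO cultures lay below all WT cultures, and the log2 fold change was -0.15 with a standard error of 0.091 (limma, unadjusted p = 0.135). Psmg1, which pairs with Psmg2, had 20.6, 22.3 and 20.8 RPKM in WT and 21.9, 22.9 and 23.2 RPKM in Ucp1-KO cultures, with a log2 fold change of 0.09.

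Psmg2 had the highest coefficient of variation of the tested members outside the immunoproteasome, 29.3%, and was chosen after its values were seen. It had 11.1, 19.4 and 22.6 RPKM in WT and 10.9, 16.8 and 20.5 RPKM in Ucp1-KO cultures. The low cultures were WT 10 and Ucp1-KO 13, 1 of each genotype.

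Partners of the proteasome and genes of ubiquitin delivery were taken from a list outside the rule. Of the 24 tested, 9 had log2 fold changes above 0 and 15 below, with a median of -0.02, and 1 of 24 had an unadjusted p under 0.05, or 4.17% against 5.54% of all transcripts. This was Ngly1, the deglycosylating enzyme that processes NFE2L1, with 21.5, 20.3 and 21.0 RPKM in WT and 24.1, 23.1 and 25.96 RPKM in Ucp1-KO cultures. All Ucp1-KO cultures lay above WT, as in 6.04% of all transcripts, and the log2 fold change was 0.21 with a standard error of 0.084 (limma, unadjusted p = 0.0435, adjusted p = 0.868). Nfe2l1, the transcription factor that supplies the proteasome, had 129, 158 and 170 RPKM in WT and 120, 151 and 153 RPKM in Ucp1-KO cultures, which overlapped. Pomp, the maturation factor of the core, had 88.5, 91.7 and 75.6 RPKM in WT and 99.96, 94.4 and 80.1 RPKM in Ucp1-KO cultures. The small cap subunit Shfm1 lay between 152 and 177 RPKM, and Adrm1, the ubiquitin receptor of the cap, lay between 3.97 and 4.99 RPKM with 78.0% of its windows shared with another gene.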

How the data were processed

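RNA of 6 cultures of primary brown adipocytes, 3 WT and 3 Ucp1-KO, was read in single runs of 50 bases. Mapping to mouse genome build 38 and counting of unambiguous reads per annotated transcript were done by the authors with Genomatix tools, and the RPKM values they deposited fill one table with 168326 rows from several annotations. Cultures were assigned to genotypes by the sample labels. The 28890 RefSeq rows were used, and the 16865 with a mean of at least 0.5 RPKM entered the comparison (limma 3.58.1, R 4.3.3), with eBayes and trended variance, after a log2(RPKM + 1) transformation, with genotype as the single term. The Benjamini-Hochberg adjustment ran over all of them, and 0.05 was the threshold. The authors' own comparison used DESeq2 and was not repeated here.

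For single members, RPKM values were in addition permuted exactly between genotypes (two-sided). Library totals were recovered from the steps of the RPKM values of Ensembl transcripts with lengths of GENCODE M21, of which between 92.7% and 92.9% came out whole in a culture (tolerance 0.01 reads). The length of each RefSeq transcript was then taken as the shortest one that gave whole reads in all cultures, which existed for all 16865 tested, so that printed reads and lengths are inferred. The libraries carried no molecular identifiers, so that reads need not stand for separate molecules. The test was run on simulated reads with 1 fixed spread for all transcripts, where it called 92 of 92 changes of 2-fold and 108 of 108 of 4-fold. The simulated spread was not matched to these cultures, so this cannot show how many changes were missed here. Other calculations used Python 3.11.15 with numpy 2.4.6, pandas 2.3.3 and scipy 1.17.1, and figures matplotlib 3.10.9.

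Members, gene lists and marker lists were chosen with earlier results of these data known. Given with all 6 values are the catalytic subunits and their immune counterparts, in each group the members with the highest and lowest mean and the smallest p, and members without overlap. The lists covered proteasome partners, MHC class I genes and markers of brown adipocytes, stromal cells, leukocytes, endothelium and skeletal muscle. Shared windows were counted for 1 GENCODE M21 transcript per gene, the longest that matches the RefSeq transcript, against all transcripts of other genes. It can be longer than the RefSeq transcript, as in Psma3 with 2797 windows against an inferred length of 1434 bases. Alternatives were 0.1 RPKM in place of 1, no minimum abundance, 1 transcript per gene, all annotations, all RefSeq transcripts of a member, median-of-ratios scaling, no intensity trend, unadjusted p-values and leaving out each culture. limma-voom on the recovered reads was added after seeing the data.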

Additional observations from a re-analysis of the deposited data

How the results depend on the processing

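The number of transcripts called at an adjusted p of 0.05 (limma) was 0, was 22 with no minimum abundance and was 935 at an unadjusted p, and limma-voom on recovered reads called 0 (894 at an unadjusted p). Members at an unadjusted p under 0.05 were 0, were 3 with no minimum abundance (Psma3, Psmb3 and Psmd8), 0 in limma-voom, and 0 to 3 when leaving out 1 culture. These were Psmb3 without WT 10 (10.4% of all transcripts in that setting), Psme1 and Psme2 without Ucp1-KO 13 (9.14%), and Psmb8, Psmb10 and Psmg4 without Ucp1-KO 15 (5.16%), beside 5.04% with no minimum abundance. Leaving out 1 culture moved the median log2 fold change of the caps between -0.091 and 0.10 and that of the assembly chaperones between -0.23 and -0.033. For the immunoproteasome subunits it lay between 0.03 (without Ucp1-KO 14) and 0.65 (without WT 11). Signs turned when leaving out 1 culture for Psma1 (-0.0086 to 0.17), Psmb5 (-0.012 to 0.091), Psmb6 (-0.089 to 0.0069), Psmb9 (-0.21 to 0.65), Psmc1 (-0.091 to 0.12), Psmc4 (-0.15 to 0.19) and Psmf1 (-0.028 to 0.23). The cause was not tested. The median over all transcripts was -0.0016 and became 0.01 under median-of-ratios scaling and with all annotations. When leaving out 1 culture it lay between -0.037 (without WT 10) and 0.020 (without WT 11), and was -0.027 without Ucp1-KO 14. The medians of the members, the core and the immunoproteasome subunits and the other named members (17 single log2 fold changes) kept their sign and their side of the adjusted threshold under every alternative run. Alternatives were not computed for Ucp1, Psme3, Ngly1 and the medians of the gene lists, of the 11 non-ATPase subunits and of the 17 cap subunits. No paired analysis was possible because the genotypes share no replicate numbers. Psma3, Psmg4, Psmb8 and Psmb9 rest on 62 to 493 reads per culture, against at least 4040 for Psma1 and Psmd8.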
